A study of Mus musculus with 41 samples.

Results

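The core of the Notch pathway, 3 receptors (Notch1, Notch2 and Notch4), 4 ligands (Jag1, Jag2, Dll1 and Dll4) and 3 target genes (Hes1, Hey1 and Hey2), was followed through 41 mouse mammary tumors. The members were chosen by gene symbol, which selected 10 of the 47480 genes in the deposited table. No measured value entered the choice, although earlier results on these tumors were known when it was made.

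Notch receptors are cut at the membrane after a ligand of the Delta or Jagged family on a neighboring cell pulls on them. The freed intracellular part moves to the nucleus, joins the DNA-binding protein Rbpj and switches on repressors of the Hes and Hey families. In the mammary gland the pathway is known for its part in luminal cell fate, and in blood vessels Notch4, which endothelial cells make, and Dll4 are known for their part in vessel branching.

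The study sequenced mRNA from 28 Plk2-/-; p53-/- tumors (PLK2null) and 13 p53-/- tumors (p53null), 1 library a tumor. All 41 were Balb/c mammary tumors without p53 that had been grown orthotopically in syngeneic hosts and left untreated, and the ages of the mice are not given in the sources used here. The PLK2null tumors arose from transplanted mammary epithelial cells in wild-type Balb/c hosts. Expression clustering in the study gave a claudin-low subtype, for which its text names the tumors PLK2null-743 and T11. PLK2null-732 and PLK2null-733, which correlated with PLK2null-743 and each other at r = 0.927 to 0.956 over 17208 genes, were grouped with it, and values of the 3 are given in the order PLK2null-732, PLK2null-733, PLK2null-743. This grouping rests on expression in these libraries, so p-values between subtypes are not independent of it. The other 25 PLK2null tumors stood for the remaining subtypes, and the subtype of the other 12 p53null tumors was not used. Nothing in the labels says that tumors of a genotype arose separately, so p-values measure the spread between these samples.

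Values are Salmon estimates divided by each tumor's upper quartile. With each tumor's most frequent nonzero value taken as 1 read, the libraries held 29409609 to 70868124 fragments. A read was worth 0.388 to 0.817 in these units, and the lowest value of any member, Hey2 in PLK2null-7749, stood for 9 reads, as did Hey2 in p53null-2153L. Plk2 was at 298 ± 149 (SD, n = 28) in PLK2null tumors and 3436 ± 2104 (SD, n = 13) in p53null tumors (difference of -3.39 in mean log2(value + 1), limma adjusted p = 1.30e-09), but the library labelled p53null-7435 held only 186. Among PLK2null tumors Plk2 was at 54.4, 36.6 and 128 in the claudin-low tumors and 83.3 in PLK2null-7763, against 335 ± 125 (SD, n = 24) in the others, and the claudin-low difference of -2.18 was called (limma adjusted p = 0.000390). All p53null titles carry a series name that no PLK2null title carries, so a library batch and the genotype cannot be told apart. In the 3 claudin-low PLK2null tumors the summed values of 7 luminal epithelial markers were 47.4 to 323, against 17507 to 113692 in the other 25 PLK2null tumors and 33758 in T11, where the other 12 p53null tumors had 71289 to 305949. The sum over 11 endothelial markers was 223891 to 242921 in those 3 tumors, 100203 in PLK2null-7763 and 3340 to 9183 in the remaining 24 PLK2null tumors. In bulk tumors, more cells of a type and more RNA per cell cannot be told apart.

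Per kilobase of exon, Hes1 was the most abundant member, with a median level of 756 over the 41 tumors, and Hey2 the least, with 5.05. Between them lay Notch1 at 381, Dll1 at 290, Jag1 at 251, Hey1 at 205, Notch2 at 162, Notch4 at 84.8, Dll4 at 76.2 and Jag2 at 70.1 per kilobase. The ranges over tumors of every pair of neighbors in this order overlapped. Hes1, for example, ran from 335 to 1641 per kilobase and Notch1 from 98.2 to 632. Among the 25 PLK2null tumors not grouped as claudin-low, Jag2 and Hey2 varied most. Their standard deviations of 1.90 and 1.72 on the log2(value + 1) scale exceeded those of 93.2 and 90.9% of 17208 genes. Hes1 and Notch1 varied least among the members, with standard deviations of 0.48 and 0.52, near the median of 0.59 over all genes.

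**Figure D1:**
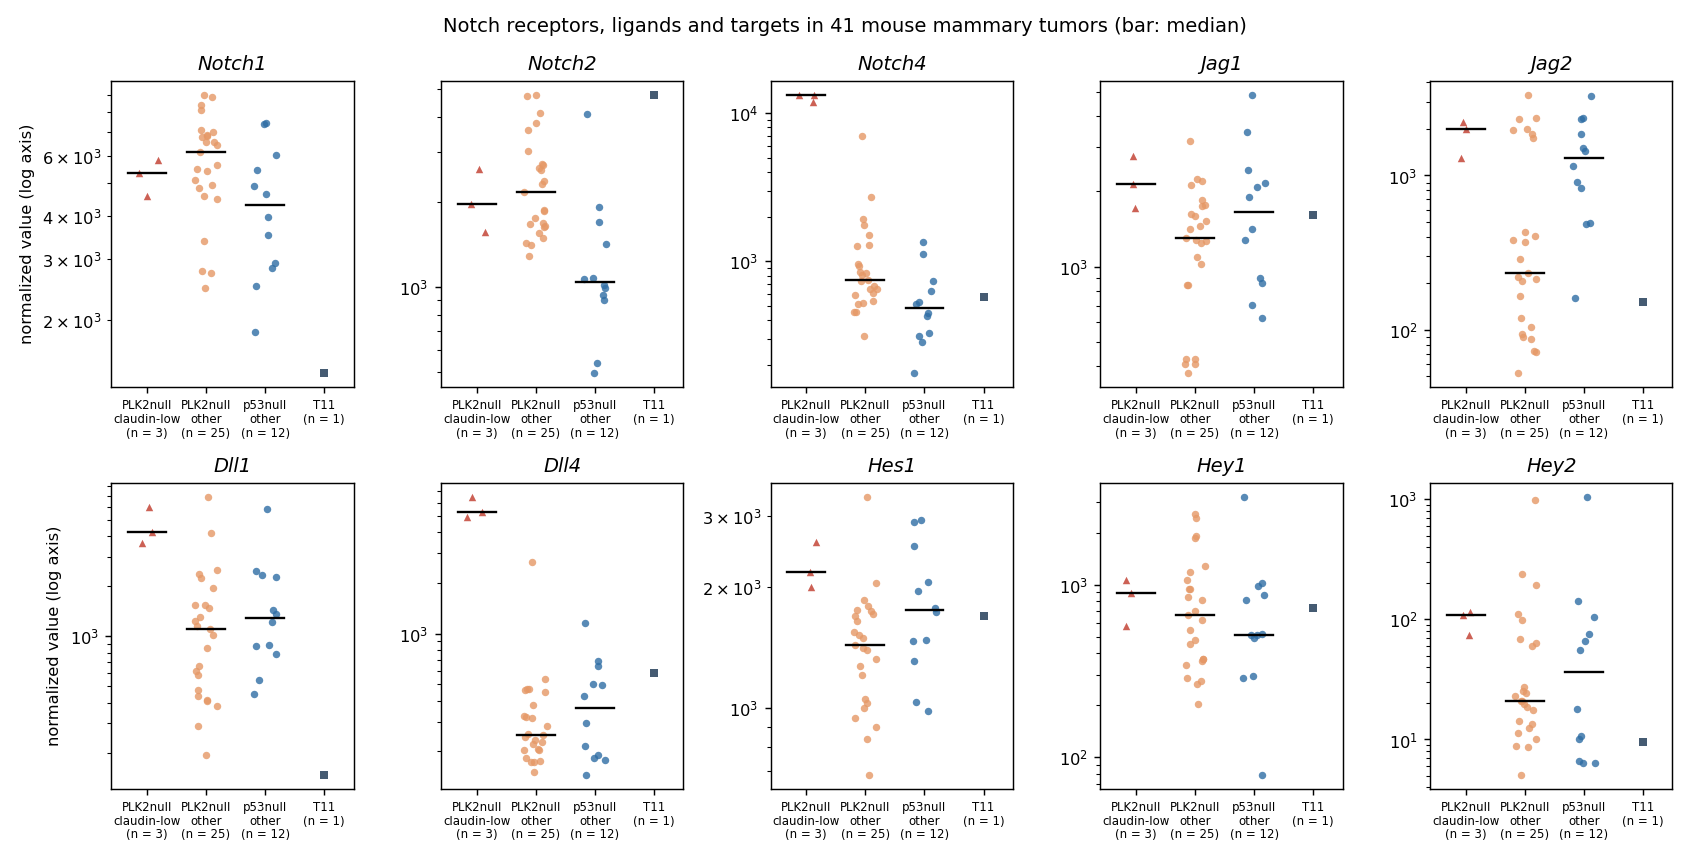
Normalized value of each gene (vertical log axes) in 4 groups of tumors: claudin-low PLK2null, other PLK2null, p53null other than T11, and T11. Each point is a tumor and each bar a group median. Notch4 and Dll4 of the 3 claudin-low PLK2null tumors lie above every other tumor.

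Claudin-low PLK2null tumors had far more Notch4 and Dll4 RNA than the other PLK2null tumors, and more Dll1. The fitted folds on the log2(value + 1) scale were 14.4 for Notch4, 18.7 for Dll4 and 4.55 for Dll1 (n = 3 against n = 25). These 3 of the 10 members were called higher and none was called lower (limma on log2(value + 1), Benjamini-Hochberg adjusted p under 0.05). Of the 17153 genes tested, 20.2% were called higher, 17.1% lower and 37.3% in either direction. Without adjustment, 5 members had a p under 0.05, all higher, as had 7811 of the 17153 genes in either direction. For Notch4 and Dll4 the groups did not overlap, as for 11.1% of all genes in that direction. The median difference was 1.26 over the 10 members and 0.023 over all genes tested. The share of members called was thus near that of all genes.

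Between genotypes 3 of the 10 members were called, a share near that of all genes. PLK2null tumors had 1.46-fold more Notch1, 1.74-fold more Notch2 and 2.36-fold more Notch4 RNA on the log2(value + 1) scale than p53null tumors (n = 28 against n = 13), and no ligand or target among the members was called. A further receptor outside the members, Notch3, was at 3010 ± 1633 in PLK2null and 2836 ± 1222 in p53null tumors and was not called (difference of 0.070, SE 0.28, adjusted p = 0.867). Of 17208 genes 24.3% were called higher, 15.3% lower and 39.5% in either direction, and the 3 members called were all higher. The genotypes overlapped for all 10 members, whereas PLK2null tumors lay wholly above p53null tumors for 1.12% of all genes. Without adjustment, 3 members were higher and 1, Jag2, was lower at p under 0.05, where 8163 of the 17208 genes passed in either direction. The median difference of all genes was 0.097 and that of the members 0.16, with 61.4% of the called genes higher. After quantile normalization the median of all genes was -0.0049 and 50.7% of calls were higher, and after median-ratio rescaling 49.2%. These 3 receptors kept their direction under both, but Notch1 lost its call under the median-ratio rescaling (difference of 0.43, limma adjusted p = 0.0801).

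**Figure D2:**
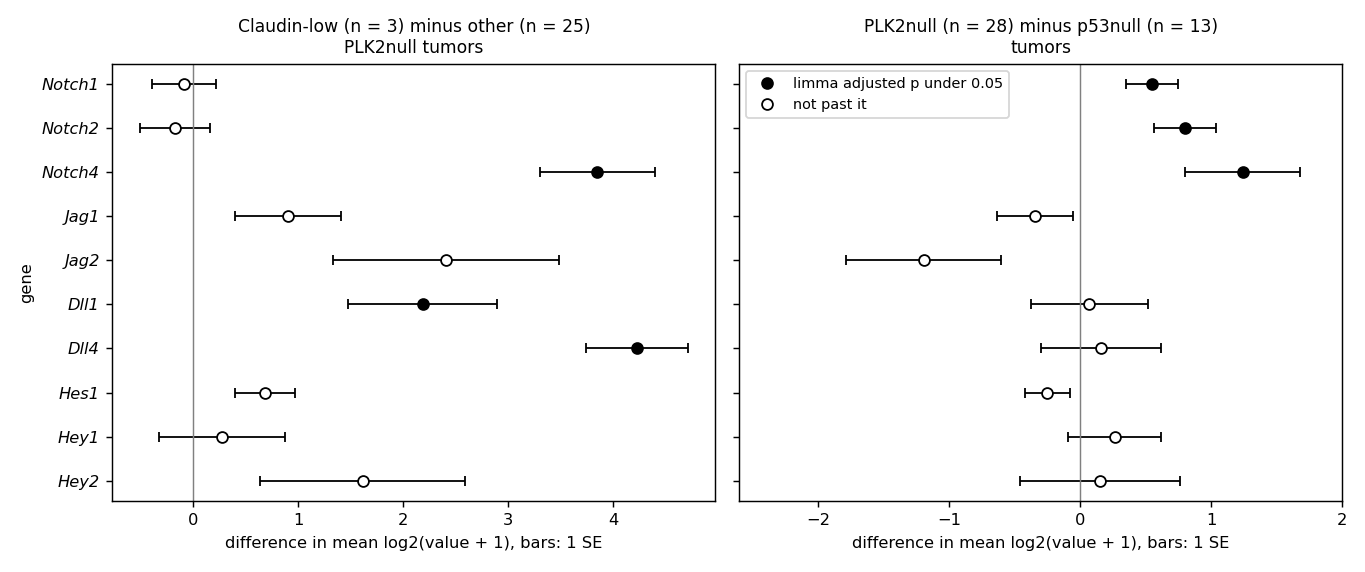
Differences in mean log2(value + 1) with bars of 1 SE, for claudin-low against other PLK2null tumors (left) and for PLK2null against p53null tumors (right). Filled points passed a limma adjusted p of 0.05. Left, Dll4 at 4.23 and Notch4 at 3.85 lie farthest from 0. Right, the 3 receptors at 0.55, 0.80 and 1.24 are the filled points.

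The sequences before the start sites of Notch4 and Dll4 are shown because both genes set the claudin-low tumors apart, and that of Hey2 because it alone among the member promoters searched held the letters TGGGAA, which Rbpj binds. RefSeq on GRCm38.p6 gave 9 promoters for 8 members, with 2 for Dll1, and those of Hes1 and Hey1 were not searched. The window was 250 bases before to 50 after the start, and both strands were searched. The letters occurred in 25.6% of 32851 promoters of that length, and the longer GTGGGAA, which contains them, in 6.38%. In Hey2 the matches began 207 and 3 bases before the start. The second ran across it, so the printed stretch ends within it. Capitals mark the matches, which appear as TTCCCA where they lie on the other strand. A match describes letters and not a bound site.
Notch4, chr17:34564045-34564294, plus strand: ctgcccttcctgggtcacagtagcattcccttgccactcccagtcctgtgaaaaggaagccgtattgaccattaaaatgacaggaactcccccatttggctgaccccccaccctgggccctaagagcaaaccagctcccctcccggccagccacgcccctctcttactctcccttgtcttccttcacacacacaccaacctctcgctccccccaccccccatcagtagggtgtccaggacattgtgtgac
Dll4, chr2:119325534-119325783, plus strand: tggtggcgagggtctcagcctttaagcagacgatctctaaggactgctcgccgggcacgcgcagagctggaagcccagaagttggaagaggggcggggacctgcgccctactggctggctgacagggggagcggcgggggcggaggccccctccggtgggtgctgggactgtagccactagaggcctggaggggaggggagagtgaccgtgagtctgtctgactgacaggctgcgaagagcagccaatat
Hey2, chr10:30842784-30843033, minus strand: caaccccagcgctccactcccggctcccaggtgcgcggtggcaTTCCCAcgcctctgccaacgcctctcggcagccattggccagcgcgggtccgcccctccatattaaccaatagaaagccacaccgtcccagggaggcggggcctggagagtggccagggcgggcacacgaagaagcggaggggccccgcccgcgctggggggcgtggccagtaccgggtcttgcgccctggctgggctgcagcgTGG

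Notch1 is the receptor best known from mammary epithelium and T cell leukemia, and lies at chr2:26457903-26516663 (GRCm38, minus strand). It was at 4579.9, 5335 and 5822 in the 3 claudin-low PLK2null tumors. The 25 others of that genotype ran from 2480.1 to 8995 with a median of 6143. The p53null tumors ran from 1398 in T11 to 7447, with a median of 3967. The claudin-low tumors thus lay inside the range of the other PLK2null tumors (difference of -0.087, SE 0.30, adjusted p = 0.851). The genotypes overlapped too, and 24 of 28 PLK2null tumors exceeded the p53null median (difference of 0.55, SE 0.20, limma adjusted p = 0.0225, permutation p = 0.00724). Without the 4 claudin-low tumors that adjusted p was 0.0679. The gene overlaps the opposite-strand transcripts 0610009E02Rik and Gm13568, with mean values of 269 and 122, and the sources used here do not say that counting used strand.

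Notch2 (chr3:98013527-98150361, plus strand) is the receptor whose loss in mice harms kidney, vessel and liver development. It was at 1567, 1958 and 2605 in the 3 claudin-low tumors. The 25 remaining PLK2null tumors ran from 1289.99 to 4768 with a median of 2161. In p53null tumors the range was 495 to 4774, with a median of 1064 and T11 at the top. All 28 PLK2null tumors exceeded the p53null median (difference of 0.80, SE 0.23, limma adjusted p = 0.00571, permutation p = 0.00191). The claudin-low PLK2null tumors lay among the others (difference of -0.17, SE 0.34, adjusted p = 0.728). T11 and p53null-2396R, at 4098, stood well above the other 11 p53null tumors, none of which passed 1922.

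Notch4 (chr17:34564268-34588503, plus strand), the receptor made mainly by endothelial cells, was also found as a site of mouse mammary tumor virus insertion. It was at 11899.9, 13195.5 and 13169 in the claudin-low PLK2null tumors. In the other PLK2null tumors it ran from 313 to 6973, with a median of 745. The p53null tumors ran from 176 to 1354 with a median of 519. All 3 claudin-low PLK2null tumors exceeded all 38 others. Among the 25 other PLK2null tumors, PLK2null-7763 held the 6973 and PLK2null-1984 came next at 2723. The claudin-low difference was 3.85 (SE 0.55, limma adjusted p = 2.15e-06; 2-sided exact permutation p = 0.000305, the smallest that 3 against 25 allows), and 3.97 without PLK2null-7763. Between genotypes the difference was 1.24 (SE 0.44, limma adjusted p = 0.0218, permutation p = 0.00714), with 24 of 28 PLK2null tumors above the p53null median. Leaving out the 4 claudin-low tumors put it at 0.85 (adjusted p = 0.0295), and leaving out tumors PLK2null-7750, PLK2null-1984, PLK2null-1985 and PLK2null-1986 at 1.12 (adjusted p = 0.0542).

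Jag1 (chr2:137081456-137116644, minus strand), the ligand mutated in Alagille syndrome, was at 2766, 2148 and 1726 in the 3 claudin-low tumors. The other PLK2null tumors ran from 375 to 3193 with a median of 1305. The p53null tumors ran from 625 to 4863 with a median of 1616. The groups overlapped in both comparisons, and neither difference passed the test (0.91, SE 0.50, adjusted p = 0.163 for claudin-low, and -0.34, SE 0.29, adjusted p = 0.368 for genotype). The 5 lowest PLK2null tumors were PLK2null-7750, PLK2null-1984, PLK2null-1985, PLK2null-1986 and PLK2null-1967, all between 375 and 428.

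Jag2 (chr12:112907819-112929776, minus strand) is a ligand known for its part in limb, palate and thymus development. It was at 2009, 2227 and 1307 in the claudin-low PLK2null tumors. The 25 others of that genotype ran from 52.2 to 3321 around a median of 235. In p53null tumors the range was 152 to 3284 with a median of 1149. The other PLK2null tumors fell on either side of a gap, with 18 between 52.2 and 428 and 7 between 1742 and 3321. The claudin-low tumors were nearer to the upper set (difference of 2.41, SE 1.08, limma adjusted p = 0.0794, exact permutation p = 0.0433). Across genotypes the difference was -1.19 (SE 0.59, adjusted p = 0.105). It was -1.67 (limma adjusted p = 0.0205) when the 4 claudin-low tumors were left out, and it then passed the test.

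Dll1 (chr17:15367354-15376872, minus strand) is a Delta ligand known from somite formation and from mammary stem cells. It was at 4229, 3640.5 and 6045 in the 3 claudin-low tumors. The 25 remaining PLK2null tumors ran from 193 to 6933 with a median of 1116. The p53null tumors ran from 146 in T11 to 5808 in p53null-5317, with a median of 1223. Of the 25, PLK2null-7748 at 6933 exceeded all 3 claudin-low tumors and PLK2null-1967 at 4176 exceeded PLK2null-733 (difference of 2.19, SE 0.71, limma adjusted p = 0.0163, exact permutation p = 0.00488). That call was lost when either PLK2null-732 or PLK2null-743 was left out (adjusted p of 0.0580 and 0.0924, limma). The genotypes did not separate (difference of 0.072, SE 0.44, adjusted p = 0.916). The opposite-strand transcript A930024N18Rik, which overlaps Dll1, had a mean of 46.6.

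Dll4 (chr2:119325784-119335962, plus strand) is the Delta ligand of arterial and sprouting endothelium. It was at 6504, 5288 and 4929.9 in the claudin-low PLK2null tumors. In the other PLK2null tumors it ran from 152 to 2671, with a median of 249.8. The p53null tumors ran from 145 to 1160.5 with a median of 428. As with Notch4, the 3 claudin-low PLK2null tumors lay above all others and PLK2null-7763, at 2671, came next. The remaining 24 PLK2null tumors did not pass 540.2. The claudin-low difference was 4.23 (SE 0.49, limma adjusted p = 7.80e-08, exact permutation p = 0.000305), and 4.36 without PLK2null-7763. The genotype difference was 0.16 (SE 0.46, adjusted p = 0.816) and its sign turned to -0.24 without the 4 claudin-low tumors.

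Hes1 (chr16:30064384-30067796, plus strand), a repressor that many cell types induce on Notch signaling, was at 2584, 1994 and 2170.2 in the 3 claudin-low tumors. The other PLK2null tumors ran from 683 to 3343 with a median of 1432. The p53null tumors ran from 984 to 2935 with a median of 1734. The 3 claudin-low tumors lay in the upper part of the PLK2null range, where only PLK2null-7748 exceeded PLK2null-732 and PLK2null-743, and PLK2null-7748 and PLK2null-7764 exceeded PLK2null-733 (difference of 0.69, SE 0.29, limma adjusted p = 0.0585, exact permutation p = 0.0250). The genotype difference was -0.25 (SE 0.17, adjusted p = 0.252).

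Hey1 (chr3:8663359-8667256, minus strand) and Hey2 (chr10:30832359-30842801, minus strand) are repressors known from heart and artery development. Hey1 was at 1067, 894 and 576 in the claudin-low PLK2null tumors, inside the 204 to 2562 of the other PLK2null tumors (median, 668). In p53null tumors it ran from 78.7 to 3231 with a median of 514. Neither difference passed the test (0.28, SE 0.60, adjusted p = 0.751 for claudin-low, and 0.26, SE 0.35, adjusted p = 0.587 for genotype). Hey2 was low in most tumors. It was at 74.5, 116 and 108 in the 3 claudin-low tumors, with 5.04 to 979 in the other PLK2null tumors (median, 21.01) and 6.32 to 1054 in p53null tumors (median, 17.9). A single tumor of each genotype, PLK2null-1971 at 979 and p53null-10152 at 1054, held the highest values, well above PLK2null-7763 at 239.6 and p53null-2396R at 143. The same p53null tumor also held the highest Hey1. The Hey2 differences were 1.62 (SE 0.98, adjusted p = 0.202) for claudin-low and 0.15 (SE 0.61, adjusted p = 0.866) for genotype.

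T11, the only p53null tumor here named as claudin-low, did not share the Notch4, Dll4 and Dll1 levels of the claudin-low PLK2null tumors. It held 579.9 of Notch4, 587 of Dll4 and 146 of Dll1. Its Notch4 and Dll4 ranked 5 and 4 of 13 p53null tumors from the highest, and its Dll1 was the lowest of all 41. The claudin-low difference of PLK2null tumors exceeded that of p53null tumors by 3.61 (SE 1.06) for Notch4, 3.47 (SE 1.02) for Dll4 and 5.35 (SE 1.36) for Dll1 (limma adjusted p of 0.0231, 0.0234 and 0.00844). These were 3 of 10 members, all in the higher direction, where 6.54% of 17208 genes were called higher, 3.43% lower and 9.97% in either direction. T11 was a lone sample that was assumed to vary like the other groups. In T11 the sum over the endothelial markers was 8349, inside the 2473 to 19720 of the other p53null tumors, and all 11 of these markers were called higher in the same comparison of differences. What part this had in the Notch4, Dll4 and Dll1 values was not tested. T11 also held the highest Notch2 of all 41 tumors and the lowest Notch1, but those differences did not pass the test (-2.23, adjusted p = 0.0565, and 1.46, adjusted p = 0.161).

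Endothelial markers moved with Notch4 and Dll4. In the claudin-low comparison all 11 endothelial markers were called higher, with a median difference of 4.98, as were all 6 pericyte markers, with a median of 3.89. The arterial and tip cell markers outside the members gave 4 of 5 higher and 1 lower, and the lymphatic markers did the same. T cell, B cell and red blood cell markers were higher in 5 of 5, 4 of 4 and 4 of 4 as well. All 7 luminal markers, 4 of 6 basal markers and 3 of 6 fibroblast markers were lower. Macrophage markers were higher in 1 of 5, adipocyte markers in 1 of 3 and proliferation markers lower in 1 of 5. The basal markers summed to 19.8 to 213 in the claudin-low PLK2null tumors and to 463 to 75686 in the 25 others, with Krt6a at or under 3 reads in each of the 3. Pericyte markers summed to 119554 to 130251, against 3888 to 14546 in 24 others and 48746 in PLK2null-7763. Red blood cell markers summed to 64477 to 249281, against 434 to 4984 in those 24 and 15193 in PLK2null-7763. The higher adipocyte marker was Fabp4, a fatty acid carrier that capillary endothelium also makes, at 109046 ± 13674 (SD, n = 3) against 2873 ± 10162 (SD, n = 25). The other adipocyte markers tested were not called, with Adipoq at 7.54 ± 4.15 against 27.3 ± 55.3 and Plin1 at 21.9 ± 5.83 against 13.4 ± 30.6. What part these cell types had in the Notch4, Dll4 and Dll1 values was not tested. Between genotypes 0 of the 11 endothelial markers were called by limma, and 0 had an unadjusted p under 0.05 (median difference of 0.63), beside the Notch4 difference of 1.24. Of the 6 basal markers 4 were called lower in PLK2null tumors and 0 higher, with a median difference of -3.09. Of all genes 15.3% were called lower. Every other marker list had at most 1 call between genotypes. What part the basal difference had in the Jag2 values was not tested.

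Among the tumors not grouped as claudin-low, an endothelium score, the mean log2(value + 1) of the 11 markers, followed the same genes. In the 12 p53null tumors other than T11 it correlated with Notch4 at r = 0.955 and rho = 0.986, and with Dll4 at r = 0.898 and rho = 0.874 (2-sided permutation test, adjusted p of r = 0.000300 and 0.00165 over 60 relations computed). Without the 2 tumors farthest from the median score r was 0.931 and 0.864. In the 25 PLK2null tumors r was 0.742 for Notch4 and 0.838 for Dll4, with rho = 0.553 and 0.609 (permutation test, adjusted p of r = 0.003375 and 0.00300). It fell to 0.363 and 0.413 without tumors PLK2null-7763 and PLK2null-1987, and without PLK2null-7763 alone it was 0.477 and 0.494 (n = 24). The PLK2null relation with the endothelium score thus rested in large part on PLK2null-7763. A pericyte score over the 6 pericyte markers also followed both genes. In the 25 PLK2null tumors its r was 0.683 for Notch4 and 0.831 for Dll4 (permutation test, adjusted p = 0.00547 and 0.000600). Without tumors PLK2null-1974 and PLK2null-7763 r was 0.462 and 0.617. In the 12 p53null tumors r was 0.722 and 0.848 (permutation test, adjusted p = 0.0409 and 0.00300), and 0.281 and 0.696 without the 2 outermost. Tumors that share an origin would not be independent, and the labels do not give which do, so these p-values may be too small.

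**Figure D3:**
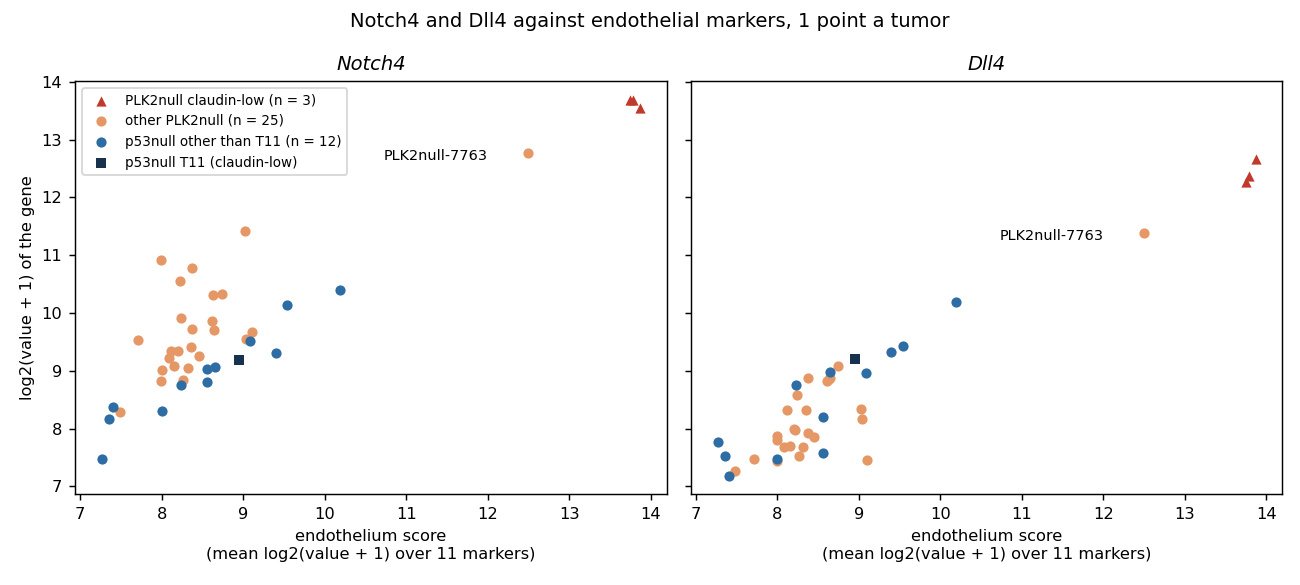
Notch4 (left) and Dll4 (right) as log2(value + 1) against the endothelium score of each tumor, by group. The 3 claudin-low PLK2null tumors stand at scores of 13.7 to 13.9, with PLK2null-7763 at 12.5 and every other tumor at 10.2 or less.

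Jag2 followed the basal epithelial markers instead. In the 25 PLK2null tumors the mean log2(value + 1) of 6 basal markers correlated with it at r = 0.913 and rho = 0.933 (2-sided permutation test, adjusted p = 0.000300 for both over 60 relations). Without the 2 outermost tumors r was 0.887. Among the 18 PLK2null tumors below the gap in Jag2, this score correlated with Jag2 at r = 0.856 and rho = 0.889 (2-sided permutation test, p = 1e-05 for both, the smallest that 100000 resamples give). Among the 7 above the gap r was 0.472 and rho 0.607 (exact permutation p = 0.278 and 0.167). The gap was drawn from the Jag2 values themselves, and the p-values below and above it are not adjusted. Tumors PLK2null-7750, PLK2null-1984, PLK2null-1985 and PLK2null-1986, at 52.2 to 90.4 of Jag2, were among the 18. The relation without them was not computed, and tumors that share an origin would make these p-values too small. The basal score ran from 3.91 to 10.3 below the gap and from 9.46 to 12.4 above it. Hey2 ran from 5.04 to 111 in the first set and from 60.2 to 979 in the second. The claudin-low PLK2null tumors departed from this pattern, since their basal score of 1.44 to 4.22 came with Jag2 values of 1307 to 2227. In the 12 p53null tumors r was 0.594 and rho 0.343 (permutation test, adjusted p = 0.155 and 0.518). The other Jagged ligand, Jag1, followed the basal score there at r = 0.692 and rho = 0.811 (permutation test, adjusted p = 0.0394 and 0.0164). Without the 2 outermost tumors r was 0.815. In the 25 PLK2null tumors the Jag1 relation did not pass, with r = 0.409 and rho = 0.151 (permutation test, adjusted p = 0.149 and 0.685).

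Members also moved together in pairs within the same tumor groups, a comparison added after the values were seen. Of 90 relations, 45 in each group, 9 passed an adjusted permutation p of 0.05 for r. Dll1 and Hes1 did so in both groups, with r = 0.804 and rho = 0.784 among 25 PLK2null tumors and r = 0.755 and rho = 0.685 among 12 p53null tumors (permutation test, adjusted p of r = 0.000900 and 0.0445, of rho = 0.00180 and 0.134). Without the 2 outermost tumors r was 0.742 and 0.586. Notch4 and Dll4 passed in both as well, with r = 0.689 and 0.858, but in PLK2null tumors r was 0.382 without PLK2null-7763. Notch4 and Hey1 had r = 0.666 in PLK2null tumors, and 0.498 without tumors PLK2null-7750, PLK2null-1984, PLK2null-1985 and PLK2null-1986. For that pair r was 0.333 in the 12 p53null tumors (permutation test, adjusted p = 0.528). Hey2 moved with Jag2 (r = 0.722) and Dll4 (r = 0.629) in PLK2null tumors (permutation test, adjusted p = 0.00135 and 0.0292). In the 12 p53null tumors these were 0.260 and 0.298 (permutation test, adjusted p = 0.588 and 0.554). Jag2 and Dll1 passed in those 12 at r = 0.777, but not in PLK2null tumors at r = 0.356 (permutation test, adjusted p = 0.0323 and 0.226). Notch2 and Hey2 went in opposite directions in PLK2null tumors (r = -0.62 and rho = -0.66, permutation test, adjusted p = 0.0133 and 0.0153). In the 12 p53null tumors r was -0.00025 and rho -0.063 (permutation test, adjusted p = 0.999 and 0.933). Tumors PLK2null-7749, PLK2null-1973, PLK2null-1974 and PLK2null-1975 had Notch2 at 3801 to 4768 and Hey2 at 5.04 to 24.2. Tumors PLK2null-7747, PLK2null-1963, PLK2null-1964 and PLK2null-1965 had Notch2 at 1289.99 to 1551 and Hey2 at 60.2 to 192. The relation without these sets was not computed.

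**Figure D4:**
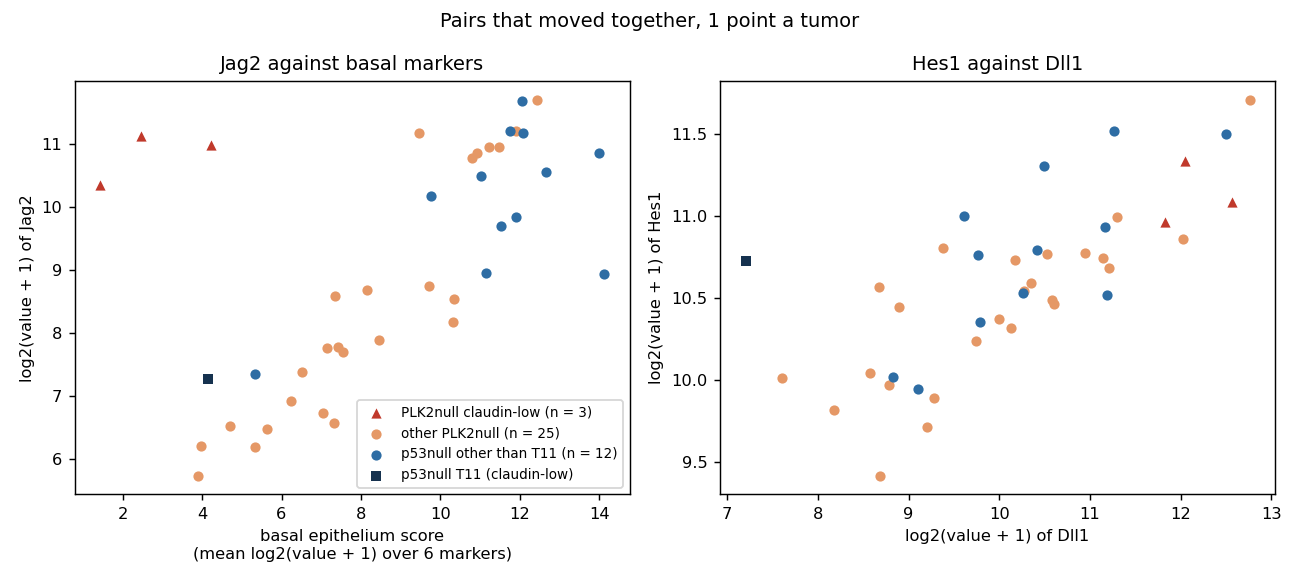
Jag2 against the basal epithelium score (left) and Hes1 against Dll1 (right), each as log2(value + 1), with 1 point a tumor. On the left the claudin-low PLK2null tumors sit apart, with scores of 1.44 to 4.22 and high Jag2. On the right T11 has the lowest Dll1 and an intermediate Hes1.

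Some PLK2null tumors had similar levels of these members, and part of them resembled each other in all genes. Tumors PLK2null-7750, PLK2null-1984, PLK2null-1985 and PLK2null-1986 correlated with each other at r = 0.755 to 0.882 over 17208 genes centred on their medians, and with no other tumor above 0.258. They shared similar levels of several members, of which only Hey1 lay wholly outside the range of the other PLK2null tumors. Hey1 was at 1850.3 to 2562 in these 4, above the highest other PLK2null tumor at 1274, and Jag1 at 375 to 428, Jag2 at 52.2 to 90.4 and Dll1 at 193 to 439 were at the low end. Notch4, at 1508 to 2723, was above the median of 742 of the other PLK2null tumors. Tumors PLK2null-7749, PLK2null-1973, PLK2null-1974 and PLK2null-1975 shared high Notch2, at 3801 to 4768, with the other PLK2null tumors at 3593 or less. In all genes these 4 were not a set apart, since they correlated with each other at 0.332 to 0.697 and with other tumors at up to 0.472. Tumors PLK2null-7747, PLK2null-1963, PLK2null-1964 and PLK2null-1965 held Jag2 at 1742 to 3321 and Notch2 at 1289.99 to 1551, and correlated at 0.618 to 0.873 with each other and at up to 0.589 with other tumors. Which tumors are transplants of 1 origin is not given in the labels, and the sets were chosen with earlier results known.

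**Figure D5:**
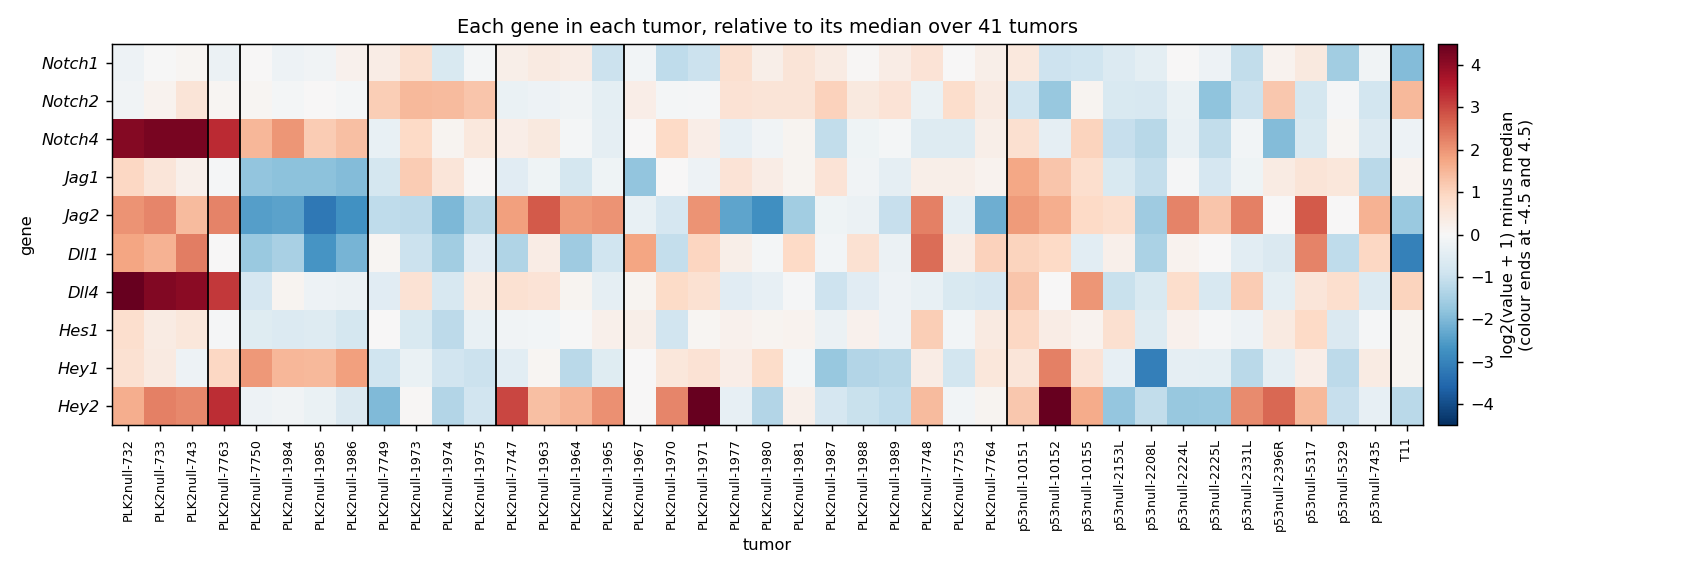
Each member (rows) in each tumor (columns) as log2(value + 1) minus the gene's median over 41 tumors, with colors from blue (lower) to red (higher). Lines part, from left, the claudin-low PLK2null tumors, PLK2null-7763, the sets of PLK2null-7750, of PLK2null-7749 and of PLK2null-7747, the other PLK2null tumors, the p53null tumors and T11. Notch4 and Dll4 are red in the first 4 columns, and Hey1 in the set of PLK2null-7750.

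The wider pathway, 54 genes in 6 lists, was measured with the members, and 48 of the genes passed the filter on low values. Dll3, Dner, Cntn1, Hes2, Hes5 and Hes7 did not. In claudin-low PLK2null tumors 13 of the 48 were called higher and 3 lower (median difference of 0.087), against 20.2% higher and 17.1% lower of all genes tested. The higher ones included Mfng, a fringe enzyme that adds sugars to Notch (5.17), Egfl7, a secreted endothelial protein (4.69), Dlk1, a non-canonical ligand (3.72), Dtx1, a ubiquitin ligase of the receptor (3.11), and Heyl, a Hey family repressor (3.04). Lower were Gata3, a luminal transcription factor (-4.72), the ubiquitin ligase Dtx4 (-1.70) and Rbpj itself (-1.17, from 4212 ± 1784 to 1724 ± 148). The remaining receptor, Notch3, named after its values were seen, was at 6132 ± 309.6 in the 3 claudin-low tumors and 2636 ± 1276 in the 25 others (difference of 1.39, limma adjusted p = 0.0109).

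Between genotypes 14 of the 48 pathway genes were called higher and 7 lower (median difference of 0.12). Of all 17208 genes, 24.3% were called higher and 39.5% in either direction. By list, 8 of 10 genes of the nuclear complex around Rbpj were called, 5 of 8 of receptor turnover, 3 of 15 of receptor glycosylation and processing, 2 of 6 other targets, 2 of 4 other receptors and ligands and 1 of 5 of ligand endocytosis, and the lists were not tested against each other. In the nuclear complex 7 were higher and 1, Snw1, lower. Among the higher ones were the coactivator Maml3 (1.12), the corepressor Spen (1.02) and the acetyltransferase Ep300 (0.75). Dtx3, a relative of the Deltex ubiquitin ligases, had the largest increase (1.36). Lower in PLK2null tumors were the non-canonical ligands Dlk2 (-3.44) and Dlk1 (-2.47), the gamma-secretase subunits Aph1a (-0.88) and Psenen (-0.83), and Hes6 (-0.81). In the comparison of the claudin-low difference between genotypes, 6 of 48 were higher and 1, Rbpj (-2.81), lower, against 6.54 and 3.43% of all genes. Dtx1 (9.53), Mfng (4.98), Egfl7 (4.73), Nrarp (4.21), a Notch-induced feedback inhibitor, and Notch3 (4.07) led the higher ones.

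The genes whose levels most resembled each member over the 41 tumors were found by Pearson r of log2(value + 1). Dll4 stood closest to Esam (r = 0.950), Pcdh12 (0.948) and Tie1 (0.947), of which Esam and Tie1 are in the endothelial list, and Notch4 to Arap3 (0.942), Ldb2 (0.925) and Pde8a (0.921). For Jag2 the closest were Pard6g (0.887), Adamts17 (0.887) and Klhl8 (0.884). Over the 37 tumors not grouped as claudin-low Col17a1 (0.919), a basal marker, took the first place. Notch2 stood closest to Hivep2 (0.870) and Ttll7 (0.860), and Hey2 to Otoa (0.822). The closest gene reached r = 0.741 for Jag1 (Ykt6) and for Dll1 (Bcl2), 0.718 for Hes1 (Grik5), 0.704 for Hey1 (Bend5) and 0.673 for Notch1 (Agbl5). Nrarp was the second closest of both Dll1 (0.739) and Hes1 (0.694). Over the 37 tumors not grouped as claudin-low Nrarp was not among the 3 closest of either. Rmdn2 (0.786) stood closest to Dll1 there and S100a16 (0.728) to Hes1. The 41 points share an upper-quartile scale and some tumors may share an origin, so these values are descriptions.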

How the data were processed

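RNA-seq of mouse mammary tumors was used, 28 without Plk2 and p53 and 13 without p53. The reads were aligned to mm10 and quantified per gene by the authors (STAR 2.7.6a, Salmon 1.4.0, Picard 2.22.4 and SAMtools are in the submitters' processing notes). The deposited values are a linear signal, estimated counts that the authors scaled so that each tumor's upper quartile of nonzero genes is 1000. The gene annotation is not given in the sources used here.

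Groups came from the sample labels, and the claudin-low grouping from the study for PLK2null-743 and T11, with PLK2null-732 and PLK2null-733 added to it. In each tumor 77.9 to 80.5% of nonzero values lay within 0.1 of a whole read, too few for a count model. Depths are therefore inferred and cover counting error only. The test was limma 3.58.1 (R 4.3.3) on log2(value + 1), a scale that understates changes of low genes. It ran on all genes whose mean over the compared tumors reached 10, with Benjamini-Hochberg adjustment over them and a threshold of 0.05. Single members were also tested by 2-sided permutation of tumors, exact for 3 against 25 and with 100000 resamples otherwise. Relations and figures used scipy 1.17.1 and numpy 2.4.6 under Python 3.11.15, with pandas 2.3.3 for tables and matplotlib 3.10.9. Positions and exon lengths came from GENCODE vM21 on GRCm38.

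The fits were tested on simulated data. For the genotype comparison limma called 164 of 200 genes given a change and 6 of those given none (17208 genes). For the claudin-low comparison it called 142 of 200 and 7 (17153 genes). Of each 200 genes, 100 were given a change of 3 on the log2 scale, and 95 and 85 of these were called. How the fits behave when tumors resemble each other, or when a library batch goes with the genotype, was not tested. The counts therefore do not vouch for the p-values given here.

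The members and lists were chosen with earlier results of these data known. All 10 members are named. Of the other pathway genes those called are named, up to 5 in each direction by size, and of the genes most like a member up to 3. The values of 1 pathway gene that this rule selects are not reported here. Alternatives were other pseudocounts, filters and normalizations, a limma trend, permutation tests and fewer tumors.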

Additional observations from a re-analysis of the deposited data

Results flagged for a closer look

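For 3 members the difference between claudin-low and other tumors was not the same among these PLK2null tumors as among these p53null tumors. By the test of that difference in limma, the PLK2null difference exceeded the p53null difference by 3.61 on the log2(value + 1) scale for Notch4, by 5.35 for Dll1 and by 3.47 for Dll4 (adjusted p of 0.0231, 0.00844 and 0.0234). The p53null arm held 1 tumor named as claudin-low, T11. Its own differences from the other 12 p53null tumors were 0.24 for Notch4, -3.16 for Dll1 and 0.75 for Dll4, against 3.85, 2.19 and 4.23 for the 3 PLK2null tumors. Those 3 correlated with each other at 0.927 to 0.956, and which tumors share an origin is not given in the labels. A difference between genotypes thus cannot be told apart from one between T11 and these 3 tumors. Without PLK2null-732 the Dll4 difference was 3.36, with an adjusted p of 0.0508.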

How the results depend on the processing

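Of 298 values of single members under an alternative, 272 kept their direction and their side of the threshold. A further 11 lost a call, 3 gained one and 12 changed sign, all 12 of them for members without a call. Permutation p-values were held against 0.05 without adjustment. The claudin-low gains of Jag2 and Hes1 came from that test (exact permutation p = 0.0433 and 0.0250) and not from an adjusted limma call. The limma test of the 7 first-numbered PLK2null tumors against 13 p53null tumors called 2942 genes and 0 of the 10 members. At an unadjusted p under 0.05 it had 2 members and 5103 of 17050 genes. It had fewer samples than the full comparison, which called 6802 genes and 3 members. Exact permutation without adjustment put 5 members under 0.05 for claudin-low, and it was not run on all genes. Genotype signs changed under quantile normalization for Dll1 (-0.032) and Hey2 (-0.097), under median-ratio rescaling for Dll1 (-0.043), without the 4 claudin-low tumors for Dll1 (-0.41), Dll4 (-0.24) and Hey2 (-0.16), with the first-numbered tumors for Dll4 (-0.18), and without PLK2null-7750, PLK2null-1984, PLK2null-1985 and PLK2null-1986, a choice made after seeing the data, for Hey1 (-0.011). Claudin-low signs changed without PLK2null-732, where the values without 1 claudin-low tumor ran from -0.17 to 0.0074 for Notch1 and from -0.36 to 0.0060 for Notch2, and with T11 and a genotype term for Notch2 (0.40). For Hey1 the difference between genotypes ran from -0.29 to 0.15, the latter without PLK2null-743. The cause was not tested.

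Dll1 also lost its claudin-low call with T11 included (0.82) and against the 7 first-numbered tumors (1.76, a choice made after seeing the data), and Notch1, Notch2 and Notch4 lost theirs between genotypes with the first-numbered tumors (0.70, 0.73 and 1.01). Leaving out 1 claudin-low tumor left 4527 to 4629 genes and 2 to 3 members called in the claudin-low comparison, and 1235 to 1291 genes and 2 to 3 members in its comparison between genotypes. No paired analysis was possible because the replicate labels are tumor names that the groups do not share. Notch4 and Dll4 kept their claudin-low calls under all limma alternatives, with differences of 2.92 to 3.97 and 3.34 to 4.36. Hey2 stood for as few as 9 reads, and the log2(value + 1) scale understates changes of such low genes. The next lowest member, Jag2, stood for 78 reads or more, and depth did not limit the members other than Hey2. A lone p53null tumor named as claudin-low limits what can be said across genotypes.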
